A study of Mus musculus with 17 samples.

Results

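The miR-148 and miR-152 family comprises 3 mouse microRNA (miRNA) genes, Mir148a, Mir148b and Mir152. Each gene gives a hairpin whose 5′ and 3′ arms can both yield a mature miRNA, so 6 mature names were looked for. Counts for 4 of them were found among the 1487 small RNAs (smRNAs) of the count table, namely mmu-miR-148a-3p, mmu-miR-148a-5p, mmu-miR-152-3p and mmu-miR-152-5p, and both arms of miR-148b were not analysed here. The members are set by name, and the rule that lists them uses no measured value. Earlier results of these data were, however, known when they were chosen.

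A miRNA guides the silencing complex to messenger RNAs that pair with its seed, the bases near its 5′ end. In this family the 3p arm is usually the guide and the 5p arm the less stable passenger strand. The 3p arms are best known for acting on the DNA methyltransferase Dnmt1, and miR-148a-3p is abundant in liver, in the gut and in milk. In immune cells miR-148a has been tied to the survival of T helper cells and to the tolerance of B cells.

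Small RNA was sequenced from exosomes, vesicles shed by cells, that had been precipitated from mouse feces. The mice behind all 17 libraries carry the label IL-10 KO and lack the anti-inflammatory cytokine interleukin 10. These mice have a C57BL/6J background, were 4 weeks old when obtained and were housed singly. It is a strain in which spontaneous colitis is studied. There were 10 start-point libraries from 10 mice (7 male, 3 female) and 7 end-point libraries from 6 of those mice (5 libraries from males, 2 from females). The labels give no age or disease score for either time point. No wild-type library was analysed here, so a change that disease brings and a change that age brings cannot be told apart. End-point libraries 1 and 2 both carry the label of mouse 1, and whether library 2 came from another mouse could not be settled from the labels. Feces hold RNA shed from many tissues, and in such bulk samples fewer cells of a type and less RNA per cell cannot be told apart.

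The mature sequences are shown first because the family is defined by them. They are RefSeq sequences (GRCm38.p6), written 5′ to 3′ with the seed, bases 2 to 8, in capitals, and all 6 names matched.
miR-148a-3p: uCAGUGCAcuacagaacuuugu
miR-148b-3p: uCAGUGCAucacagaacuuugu
miR-152-3p: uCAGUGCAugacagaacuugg
miR-148a-5p: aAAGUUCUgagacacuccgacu
miR-148b-5p: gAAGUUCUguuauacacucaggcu
miR-152-5p: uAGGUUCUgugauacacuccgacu

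The 3p arms of all 3 miRNAs share the seed CAGUGCA, and no mature miRNA outside the family carried it in the RefSeq table. From base 1, miR-148a-3p and miR-152-3p differed at 3 positions, C9U, U10G and U20G (the base of miR-148a-3p first, its position from the 5′ end, then the base of miR-152-3p). The 5p arms of miR-148a and miR-148b share AAGUUCU, and miR-152-5p has AGGUUCU. The 5p arms of miR-148a and miR-152 end in the same 11 bases, acacuccgacu. How reads that match several miRNAs were assigned is not given in the sources used here, so a fragment of that shared end could have been counted for either.

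The hairpins are shown to place the arms, which are in capitals.
Mir148a: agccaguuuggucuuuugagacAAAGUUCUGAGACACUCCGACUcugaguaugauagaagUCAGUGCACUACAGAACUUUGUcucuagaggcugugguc
Mir152: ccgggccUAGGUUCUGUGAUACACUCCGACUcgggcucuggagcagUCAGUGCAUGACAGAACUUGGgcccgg

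Mir148a lies on the minus strand of chromosome 6 at 51269812 to 51269910 (GRCm38.p6), outside any protein-coding gene of GENCODE vM21. The nearest such gene, Nfe2l3, is 162760 bases away. Mir152 lies on the plus strand of chromosome 11 at 96850393 to 96850465, in an intron of Copz2, a subunit of the COPI vesicle coat, which is on the same strand. Mir148b lies on the plus strand of chromosome 15 at 103285125 to 103285221, in an intron of the related Copz1.

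Library totals ranged from 87527 to 178075 counts at the start-point and from 32320 to 161862 at the end-point. Only end-point libraries 1, 3 and 7 were under 75000 counts, and they are called shallow here. The deposited counts are given here as CPM, scaled to a common library total of 1000000 counts, and 3 counts, taken as the smallest level a library can show, correspond to 16.8 CPM in the deepest library and 92.8 CPM in the shallowest. Libraries also differed in make-up. The 10 most abundant smRNAs held 11.2 to 34.1% of counts in start-point libraries 2, 8, 9 and 10, the 4 with the highest TMM scaling factors, and 37.4 to 44.4% in the other 6. These 4 libraries include all 3 start-point females.

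The family was sparse. Its 4 mature forms together held 0.0478% of all start-point counts and 0.0335% of all end-point counts. At the start-point miR-148a-3p was highest, at 176.6 ± 141.7 CPM (SD, n = 10), followed by miR-152-3p at 116 ± 93.0 CPM, miR-148a-5p at 115 ± 85.2 CPM and miR-152-5p at 67.3 ± 38.7 CPM. Each neighbouring pair in that order differed by less than the larger of its SDs. At the end-point the order was miR-152-5p at 207 ± 132 CPM (SD, n = 7), miR-148a-3p at 60.0 ± 69.5 CPM, miR-148a-5p at 33.2 ± 32.3 CPM and miR-152-3p at 12.8 ± 12.2 CPM. Of the neighbouring pairs here, miR-152-5p and miR-148a-3p differed by more than the larger SD, and the pairs below them did not. The miR-152 arms stood at opposite ends of the end-point order. Summed, the 3p arms stood at 293 ± 140 CPM (SD) over the start-point libraries and 72.8 ± 80.1 CPM over the end-point libraries, or 0.0298% and 0.00973% of pooled counts. The summed 5p arms stood at 182 ± 98.8 and 240.7 ± 144.3 CPM. The mature forms are 21 to 24 bases long, so length bears little on these levels. In the median start-point library miR-148a-3p had more counts than 45.8% of the 1487 smRNAs and miR-152-3p more than 25.6%.

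**Figure D1:**
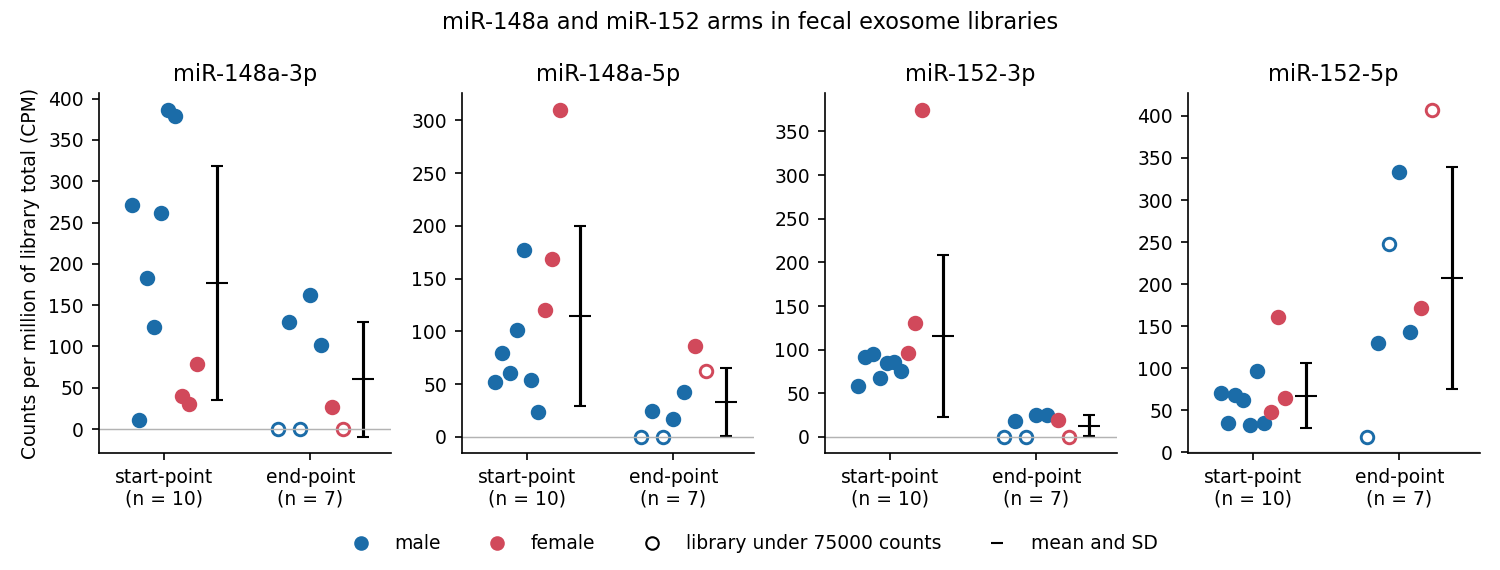
CPM (y axis, linear, one scale per panel) of the 4 family members at the start-point and end-point, with 1 point per library, males in blue, females in red, libraries under 75000 counts as open points, and the mean with its SD beside each group. All 7 end-point values of miR-152-3p, at most 25.7 CPM, lie below all 10 start-point values, whereas 4 of 7 end-point values of miR-152-5p lie above the highest start-point value.

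miR-152-3p, the guide arm of Mir152, fell between start-point and end-point. Its start-point values were 58.1 CPM at the lowest, 88.6 at the median and 374.8 at the highest, from 8 to 52 counts per library. At the end-point it was at 3 counts in each of libraries 2, 4, 5 and 6 (18.5, 25.7, 25.3 and 19.9 CPM) and at 0 counts in libraries 1, 3 and 7. The groups did not overlap, which held for 5.59% of the 1270 smRNAs tested between time points.

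The log2 fold change of miR-152-3p was -1.96 ± 0.70 (SE), with an adjusted p of 0.026 in edgeR's quasi-likelihood test. That test called 428 of 1270 smRNAs at an adjusted p under 0.05, or 33.7%, with 16.3% of all tested lower and 17.4% higher at the end-point. miR-152-3p passed the filter on low counts through the start-point alone: 7 start-point and 0 end-point libraries reached the cut of 76.8 CPM. Summed over libraries, 158 of 1379795 start-point counts and 12 of 699186 end-point counts were miR-152-3p, a ratio of end-point to start-point of 0.15 (95% exact interval 0.0758 to 0.269). That interval, like the others here, covers counting error only. Of the 158 start-point counts, 52 came from start-point library 10.

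The 3 end-point libraries at 0 were also the 3 shallowest. A count of 0 allows up to 54.8 CPM in library 1, 92.8 CPM in library 3 and 47.0 CPM in library 7, so in library 3 a level as high as the start-point median could have gone undetected. Each of the 4 deeper end-point libraries held 3 counts of miR-152-3p, which equals the floor. Their level of 22.3 ± 3.68 CPM (SD, n = 4) therefore varies only with library totals. Without the 3 shallow libraries its log2 fold change shrank to -1.08, with an adjusted p in edgeR of 0.0317. With mouse identity as a fixed block the log2 fold change was -1.98, but the adjusted p rose to 0.193 in edgeR. In male libraries only they were -1.50 and 0.183. With mouse as a random block in limma-voom they were -2.09 and 0.00572. Leaving out end-point library 7 gave -1.58 with an adjusted p of 0.0564 in edgeR.

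miR-152-5p, the other arm of the same hairpin, rose. Its start-point values were 32.8 CPM at the lowest, 63.3 at the median and 161 at the highest. At the end-point it stood at 18.3, 130, 248, 334, 143.5, 172 and 407 CPM in libraries 1 to 7, from 1 count in library 1 to 39 counts in library 4. End-point library 1 lay below every start-point library, but it held 1 count, under its floor of 54.8 CPM, so its place was not resolved. Of the other 6, 4 lay above all start-point libraries.

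For miR-152-5p the log2 fold change was 2.23 ± 0.47 (SE), with an adjusted p in edgeR of 0.000877. Summed counts went from 91 to 138 although the end-point total was smaller, a ratio of end-point to start-point of 2.99 (95% exact interval 2.28 to 3.94). Here 2 start-point and 6 end-point libraries reached the filter's cut. Without the shallow libraries the log2 fold change was 2.69 with an adjusted p in edgeR of 1.98e-05. With mouse identity as a fixed block it was 2.13 with an adjusted p of 0.0738, and with end-point library 2 also dropped 1.89 with 0.158. With mouse as a random block in limma-voom it was 1.87 with an adjusted p of 0.02.

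The arm with more counts in most libraries was the 3p arm of miR-152 at the start-point and the 5p arm at the end-point. At the start-point the lead of either arm was within counting error in every library but library 10. A comparison of arms within a library does not depend on how libraries are scaled. At the start-point the 3p arm had more counts than the 5p arm in 7 of 10 libraries, and the 5p share of miR-152 counts ran from 14.8 to 55.3%. At the end-point the 5p arm had more counts in 7 of 7 libraries, and its share ran from 85.0 to 100%. Pooled over libraries the 5p share was 36.5% and 92.0%.

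Single libraries limit this share differently. In end-point library 4 the 5p share was 92.9% (95% exact interval 80.5 to 98.5%) from 42 counts that split into 3 and 39, and in end-point library 7 it was 100% (86.8 to 100%) from 26 counts. In end-point library 1 it rested on 1 count, with an interval of 2.5 to 100%. At the start-point, library 10 had the lowest share, 14.8% (6.98 to 26.2%), and library 9 the highest, 55.3% (38.3 to 71.4%). Library 10 was the only start-point library whose interval excluded an even split. It also held 52 of the 158 pooled 3p counts, so a 3p lead at the start-point was not resolved apart from it.

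With 0.5 added to each count, the log2 ratio of 3p to 5p counts averaged 0.69 ± 0.89 (SD) over the 10 start-point libraries and -3.25 ± 1.36 (SD) over the 7 end-point libraries, a difference of -3.94. The ratio was lower at the end-point in 6 of 6 mice and did not overlap between time points. Among the 334 miRNAs with both arms tested, 14 (4.19%) had ratios that did not overlap, and 16 (4.79%) shifted at least as far as miR-152 in either direction. Arms called in opposite directions were found for 22 of the 334 (6.59%), of which 11 had, like miR-152, the 3p arm lower and the 5p arm higher. No test was made of the ratio itself, because it is built from members of the family.

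**Figure D2:**
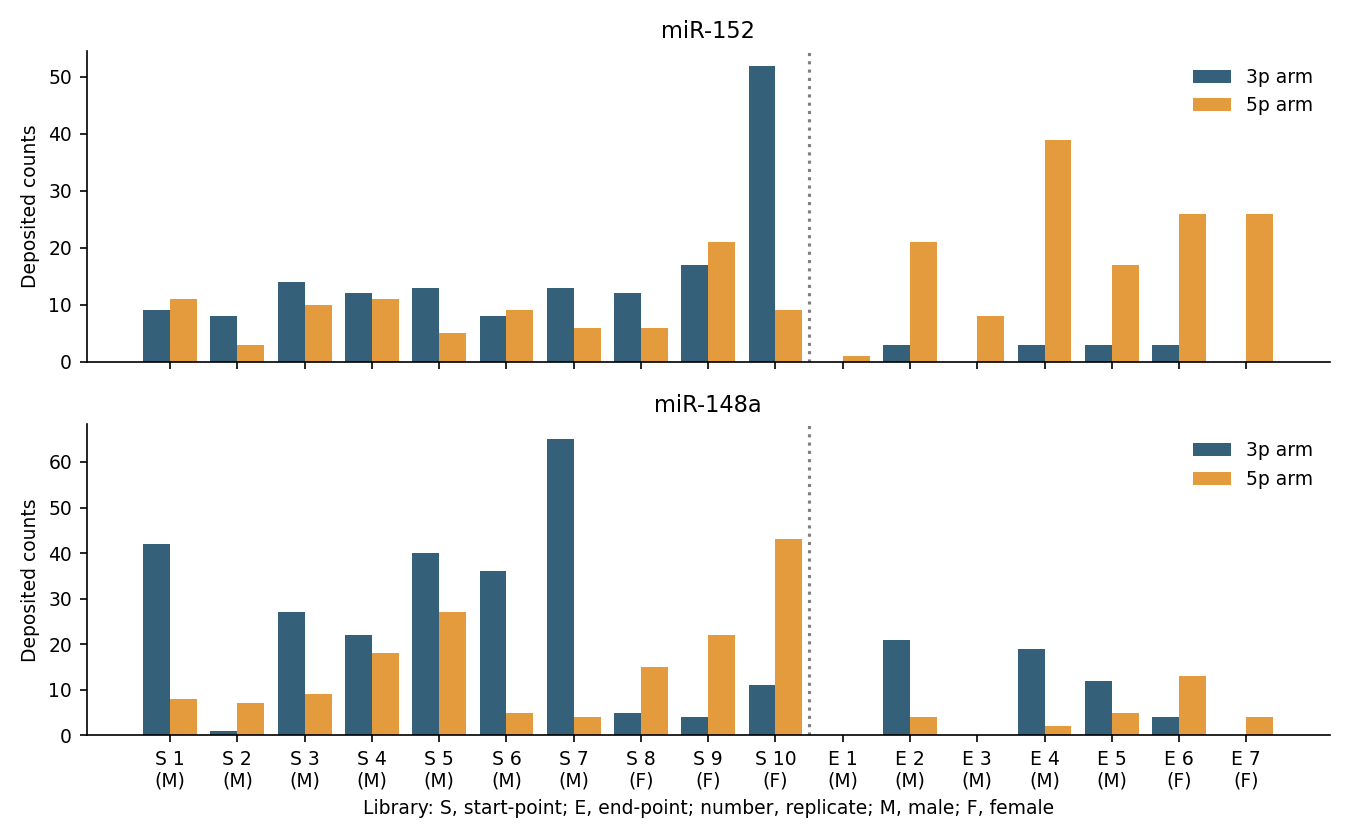
Deposited counts of the 3p arm (blue) and the 5p arm (orange) in every library (x axis, start-point left and end-point right of the dotted line, sex in brackets), for miR-152 above and miR-148a below. For miR-152 the 5p bar is the taller in 7 of 7 end-point libraries and in 3 of 10 start-point libraries, whereas for miR-148a the 5p bar is the taller in all 5 female libraries and the 3p bar in 9 of the 10 male libraries with a count, start-point library 2 being the exception.

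**Figure D3:**
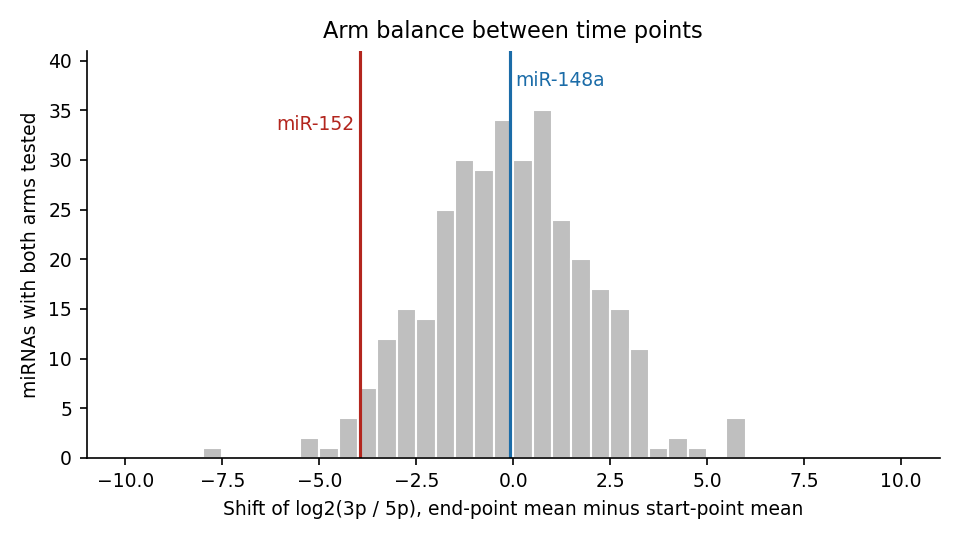
Histogram of the shift in the log2 ratio of 3p to 5p counts (x axis, end-point mean minus start-point mean) over the 334 miRNAs with both arms tested (y axis, number of miRNAs per bin). The red line marks miR-152 at -3.94, beyond the 5th percentile of -3.46, and the blue line marks miR-148a at -0.088, near the median of -0.11, where 2 end-point libraries had no count of either miR-148a arm.

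miR-148a-3p, the member with the highest start-point mean, did not pass the test between time points. Its start-point values were 11.4 CPM at the lowest, 153 at the median and 387 at the highest. At the end-point they were 0, 130, 0, 163, 101.3, 26.5 and 0 CPM in libraries 1 to 7. The groups overlapped, and the libraries at 0 were again the 3 shallowest.

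The log2 fold change of miR-148a-3p was -0.69 ± 0.88 (SE), with an adjusted p in edgeR of 0.57. Summed counts of 253 and 56 gave a ratio of end-point to start-point of 0.437 (95% exact interval 0.321 to 0.585), which leaves out the spread between libraries. The sign of the fitted change depended on the shallow libraries, since without them the log2 fold change was 0.23 with an adjusted p of 0.836. The means of 177 and 60.0 CPM differ by more than this fold change because CPM leave out the TMM factors, and the 4 deeper end-point libraries had factors of 0.419 to 0.745. With library totals in place of those factors the log2 fold change was -1.40, with an adjusted p in edgeR of 0.152.

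miR-148a-5p, the passenger arm, did not pass either. It ran from 23.3 to 310 CPM at the start-point with a median of 90.5 CPM. At the end-point it was at 0, 24.7, 0, 17.1, 42.2, 86.1 and 62.6 CPM in libraries 1 to 7, all below the start-point median. Its log2 fold change was -0.88 ± 0.62 (SE), with an adjusted p in edgeR of 0.267. The ratio of summed counts was 0.35 (95% exact interval 0.225 to 0.525). With library totals only the log2 fold change was -1.65 and the adjusted p 0.0487, while the median over all tested smRNAs moved from -0.18 to -0.65.

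**Figure D4:**
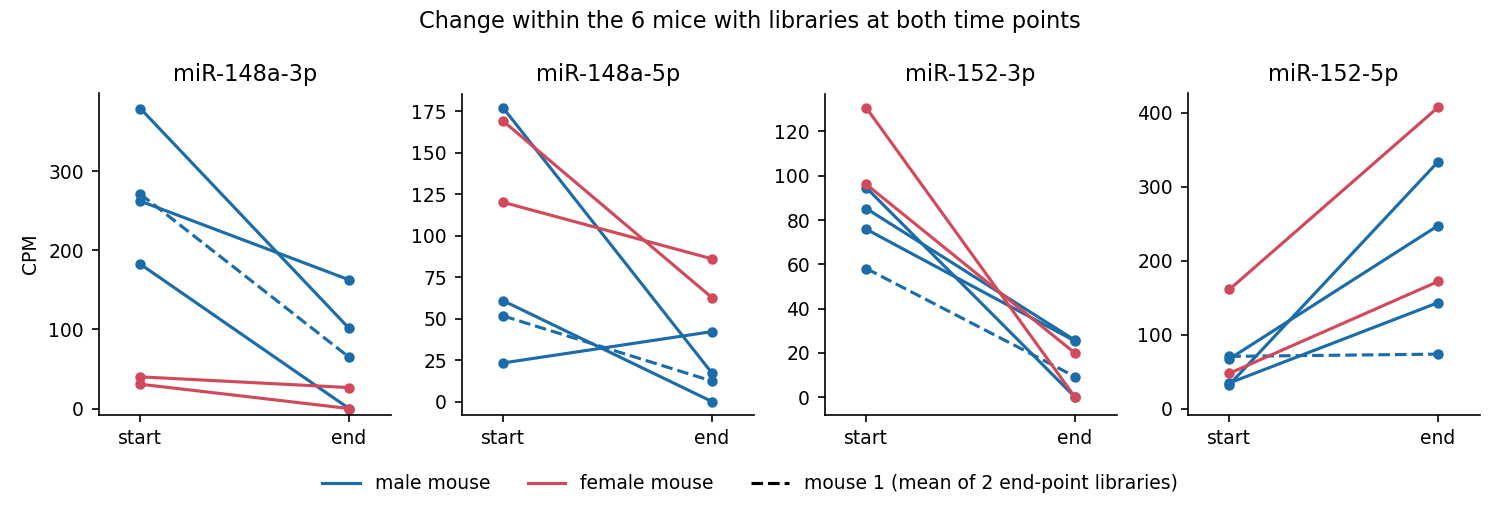
CPM at the start-point and end-point (x axis) in the 6 mice with libraries at both time points, 1 line per mouse, males in blue, females in red, with mouse 1 dashed as the mean of its 2 end-point libraries. miR-152-3p is lower and miR-152-5p higher at the end-point in 6 of 6 mice, although mouse 1 moves by only 3.04 CPM for miR-152-5p, as the mean of 1 lower and 1 higher library.

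Within mice, CPM of miR-152-3p were lower at the end-point in 6 of 6 animals, by 48.8 CPM in mouse 1 to 131 CPM in mouse 11. Mice 3 and 11 ended at 0 counts in shallow libraries with floors of 92.8 and 47.0 CPM. Mouse 3 had started at 94.5 CPM. CPM of miR-152-5p were higher in 6 of 6, from 3.04 CPM in mouse 1 to 301 CPM in mouse 5. Mouse 1 counts as higher only through the mean of its end-point libraries, at 18.3 and 130 CPM against 71.0 CPM at the start-point. With library 1 alone, which held 1 count, it was lower. After TMM scaling miR-152-3p was lower in 6 of 6 and miR-152-5p higher in 5 of 6. The end-point libraries labelled mouse 1 also differed from each other, with miR-148a-3p at 0 and 130 CPM. For miR-148a-3p CPM were lower at the end-point in 6 of 6 mice, and after TMM scaling in 4 of 6. In mouse 11 its start-point level of 30.7 CPM lay under the end-point floor of 47.0 CPM, so that fall was not resolved. In mouse 9 it went from 5 to 4 counts.

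The labels also give sex, so female and male libraries were compared with time point as a covariate. The 5 female libraries came from 3 mice and the 12 male libraries from 7, and mice sampled at both time points enter more than once, so the p-values of this fit are too small if libraries of 1 mouse resemble each other. No family member passed. edgeR called 0 of 1401 smRNAs, or 0.0%, with 136 (9.71%) at an unadjusted p under 0.05, and the DESeq2 Wald test called 35 but gave no adjusted p for any of the 4 members.

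miR-148a-3p was the member with the largest difference between the sexes. At the start-point it stood at 231 ± 136 CPM (SD, n = 7) in males and at 30.7, 40.0 and 79.3 CPM in the 3 females. The sexes overlapped, since male library 2 was at 11.4 CPM, below all 3 females. At the end-point males had 78.7 ± 75.1 CPM (SD, n = 5), with 2 libraries at 0, and the 2 females 0 and 26.5 CPM. The log2 fold change of females against males was -3.05 ± 0.96 (SE), with an unadjusted p of 0.00333 and an adjusted p of 0.399 in edgeR. With start-point libraries only, 1 per mouse, it was -3.14 ± 0.82 (SE), with an adjusted p in edgeR of 0.207. Over the alternatives that gave one, its adjusted p ran from 0.143 to 0.696.

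The arm of miR-148a with more counts also differed between the female and most male libraries. How many other miRNAs differ by sex in this way was not counted. In the 5 female libraries, from 3 mice, the 5p arm had more counts than the 3p arm. The 5p share was 75.0 to 84.6% at the start-point and 76.5 and 100% at the end-point, the 100% resting on 4 counts. In males the 3p arm had more counts in 9 of the 10 libraries with any count, and the exception was start-point library 2, with 1 count of 3p and 7 of 5p. End-point libraries 1 and 3 had no count of either arm. Over the libraries with a count of either arm, the mean log2 ratio of 3p to 5p was 0.32 ± 2.26 (SD) over 10 start-point libraries and 0.33 ± 2.61 (SD) over 5 end-point libraries. With all libraries the difference between time points was -0.088, but in libraries 1 and 3 the ratio of 0 comes from the added 0.5 alone. The ratio was lower at the end-point in 4 of the 5 mice with counts at both time points, and in 5 of 6 with all libraries, for a mean within-mouse difference of -0.26 and -0.66. Without the shallow libraries the difference between group means was 0.88. All of these lie within the SD of either group.

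Library make-up moved with this pattern. Start-point libraries 2, 8, 9 and 10, in which the 5p arm of miR-148a led, were the 4 with the highest TMM factors (1.27 to 1.92, against 0.763 to 1.12 in the other 6). The level of miR-148a-3p divided in the same way, at 11.4 to 79.3 CPM in these 4 and 123.5 to 386.5 CPM in the other 6. These 4 libraries are male library 2 and all start-point females. At the start-point sex and these factors therefore nearly coincide, and their part in the differences in level and arm was not tested. At the end-point the 2 female libraries had factors of 0.745 and 1.08, inside the range of the males (0.419 to 1.47).

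Among the other members the difference between the sexes was small against its error for both miR-152 arms. For miR-148a-5p it exceeded its error but did not pass the test. The log2 fold change of females against males was 0.89 ± 0.62 (SE) for miR-148a-5p, 0.09 ± 0.70 for miR-152-3p and -0.0048 ± 0.52 for miR-152-5p, with edgeR adjusted p of 0.651, 0.972 and 0.996. The signs for miR-152-3p and miR-152-5p changed with the scaling, so no direction is given for them.

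The members did not follow one another closely. Over the 17 libraries the Spearman correlation of log2 CPM was 0.596 between miR-148a-3p and miR-152-3p, which share a seed, 0.025 between the arms of miR-148a and -0.391 between the arms of miR-152. These are descriptions over libraries that share time point, depth and scaling factors. The smRNAs most like each member were picked by this correlation over both time points. For the miR-152 arms a shared direction therefore largely follows from the choice, and the adjusted p given beside it is no separate support. The smRNAs most like miR-152-3p were miR-6238 (rho 0.926), miR-7042-3p (0.921) and miR-6946-5p (0.915), all lower at the end-point with edgeR adjusted p of 0.0082, 0.000481 and 0.0266. Those most like miR-152-5p were miR-223-3p (0.949), a miRNA of neutrophils and other myeloid cells, miR-122-5p (0.841), the main miRNA of hepatocytes, and miR-683 (0.799), all higher at the end-point with edgeR adjusted p of 0.00187, 5.81e-05 and 0.00019. miR-148a-3p was most like miR-6929-3p (0.951), miR-8100 (0.912) and miR-7027-5p (0.907), and miR-148a-5p was most like miR-329-5p (0.784), miR-3098-3p (0.775) and miR-7646-3p (0.711), none of which passed the test.

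Markers of tissues that could shed these miRNAs were read as summed CPM. The 8 of 9 epithelial miRNAs in the table ran from 3230 to 19700 CPM at the start-point and from 2970 to 38200 CPM at the end-point, and the 2 of 3 of the exocrine pancreas from 466 to 1740 and from 414 to 5350 CPM. The 5 of 7 leukocyte miRNAs ran from 911 to 3690 and from 457 to 3230 CPM, and the 2 of 3 of red cells from 149 to 1010 and from 12.4 to 530 CPM. The 3 of 4 of smooth muscle and stroma ran from 204 to 1460 and from 308 to 12100 CPM. No marker in the table was at 0 in every library. Between time points 3 of the 8 epithelial miRNAs rose and 3 fell, 1 of 4 tested leukocyte miRNAs rose and 1 fell, 1 of 2 of the pancreas and 1 of 3 of smooth muscle and stroma rose, and the 1 tested of red cells did not pass, against 33.7% of all smRNAs called. With mouse identity as a fixed block the calls fell from 6 to 1 for epithelium, from 2 to 0 for leukocytes and from 1 to 0 for pancreas. Over all 1270 smRNAs they fell from 428 to 104. Without the shallow libraries all 3 tested of smooth muscle and stroma were called, against 467 of all 1388 smRNAs tested. Of these 3, miR-143-3p was higher and, at log2 fold changes of -2.18 and -1.62, miR-145a-5p and miR-214-3p lower (adjusted p 0.01 and 0.0222 in edgeR). The liver marker miR-122-5p was at 8.01 to 118 CPM at the start-point and 18.3 to 3390 CPM at the end-point, a log2 fold change of 5.29 with an adjusted p in edgeR of 5.81e-05. It moved in the same direction as miR-152-5p and opposite to miR-152-3p, and the part of any source tissue in these changes was not tested.

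Other miRNAs reported to act on DNA methyltransferases were set beside the family. Of 15 listed, 11 were in the table and 10 were tested, of which 3 rose and 3 fell, against 33.7% of all smRNAs called. Their median log2 fold change was -0.31, against -0.18 over all tested smRNAs. miR-143-3p, a miRNA of smooth muscle, rose by 2.87 on the log2 scale (adjusted p 0.000585 in edgeR), miR-101b-3p by 5.09 (0.00418) and miR-185-5p by 2.21 (0.0103). The log2 fold change was -1.60 (adjusted p 0.00664 in edgeR) for miR-342-3p, a miRNA of lymphocytes, -2.31 (0.0124) for miR-194-5p, a miRNA of enterocytes, and -1.73 (0.0399) for miR-140-5p. With mouse identity as a fixed block 1 of the 10 was called, miR-143-3p (adjusted p 0.048 in edgeR), against 104 of all 1270 smRNAs. In that fit the log2 fold change of miR-101b-3p was 0.64 with an adjusted p of 0.79. With library totals only 8 of the 10 were called, against 480 of all 1270 smRNAs, miR-26a-5p and miR-26b-5p being lower as well. Without the shallow end-point libraries miR-185-5p had a log2 fold change of -0.21 with an adjusted p in edgeR of 0.804, and miR-194-5p had -2.01 with 0.0933. The rise of miR-101b-3p went with a wide spread, since its end-point values ran from 46.3 to 36400 CPM.

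**Figure D5:**
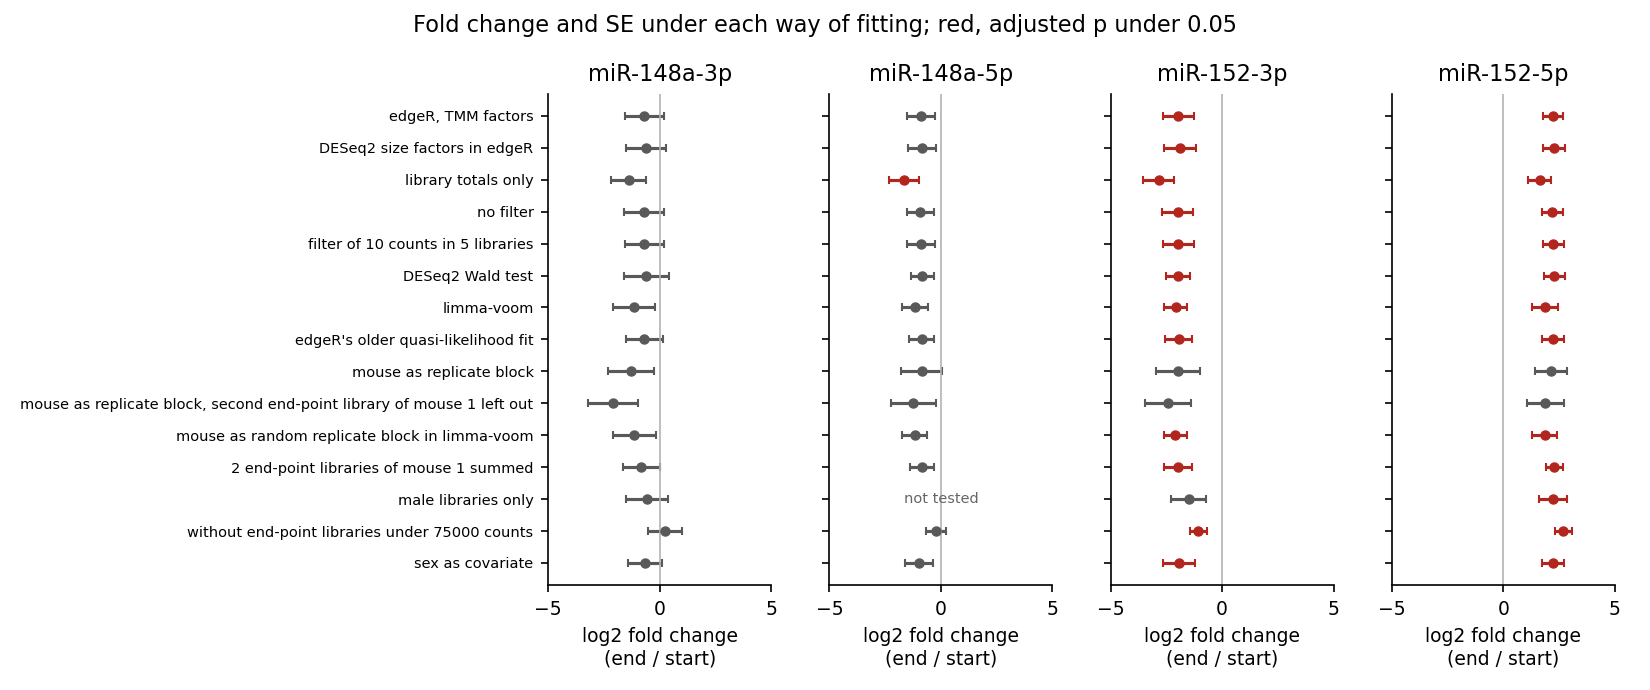
Log2 fold change of end-point against start-point with its SE (x axis) for the 4 family members under each way of fitting (y axis), in red where the adjusted p was under 0.05. Both miR-152 arms keep their direction throughout, -2.84 to -1.08 for the 3p arm and 1.63 to 2.69 for the 5p arm, and both are grey with mouse as a fixed block.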

How the data were processed

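Per the labels' protocols, exosomes were precipitated from homogenised, filtered feces and libraries were made with a kit that carries unique molecular identifiers. The authors deposited 1 table of raw counts, whole numbers with smRNAs against libraries. The submitters' processing notes name bcl2fastq and GRCm38. The aligner, counting tool, annotation and use of the identifiers are not given in the sources used here, so PCR copies may add to the spread. Every listed smRNA reached at least 10 counts in some library.

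Counts were tested with edgeR 4.0.16 in R 4.3.3 (glmQLFit with legacy=FALSE, glmQLFTest, TMM factors, filterByExpr, Benjamini-Hochberg adjustment over all tested smRNAs, threshold 0.05) on all 17 libraries, by time point, and by sex with time point as covariate. CPM use library totals without TMM factors. Correlations are of log2 CPM after TMM scaling with a prior of 2 counts. Intervals are 95% exact (Clopper-Pearson), and the floor is 3 counts, both for counting error only. No pair of libraries agreed within sampling noise (chi-square per degree of freedom at least 10.1).

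Libraries were paired across time points by the mouse label. Their deviations from group means correlated by 0.0941 on average over 7 pairs. Alternatives used limma 3.58.1 and DESeq2 1.42.0.

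The named smRNAs were the 6 family names, the members of the methyltransferase list that were called, and the 3 smRNAs with the highest Spearman correlation with each member. p-values measure the spread between the 17 libraries, which came from 10 mice, with 13 libraries from 6 mice sampled at both time points. Members and lists were chosen with earlier results of these data known. On simulated counts for 1270 smRNAs, the time point test recovered 76.8% of those changed by 2 on the log2 scale and 93.9% of those changed by 3, with 6.25% of its calls false. For sex, with 1401 simulated, 63.3% and 96.0% were recovered and 3.68% of calls were false. These rates describe the simulated counts only. Whether they carry over to the 17 libraries, which differ in make-up and partly share mice, was not tested. Nor was it tested for smRNAs with as few counts as the family members.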

Additional observations from a re-analysis of the deposited data

Results flagged for a closer look

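In start-point library 10 miR-152-3p stood at 374.8 CPM, far from the other 9 start-point libraries at 58.1 to 131 CPM. In start-point library 9 miR-152-5p stood at 161 CPM, against 32.8 to 96.6 CPM in the other 9. Across the 12 groups of values checked in this way, chance alone would mark about 5% of groups.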

How the results depend on the processing

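Between time points, the number of smRNAs called went from 428 to 104 with mouse as a fixed replicate block in edgeR. It went to 85 when end-point library 2 was also dropped, and to 211 in male libraries only. With mouse as a random block in limma-voom it was 357. It ran from 365 to 463 when single libraries were left out. With library totals only 480 were called, 153 higher and 327 lower, and with limma-voom 362, 122 higher and 240 lower, against 207 lower among the 428 with TMM factors in edgeR. For sex, 0 calls became 1 with library totals only and 35 with the DESeq2 Wald test, and ran from 0 to 1 without single libraries. The miR-152-3p fold change was past the threshold in 11 of 14 alternatives and in 12 of 13 fits without a single library (log2 -2.24 to -1.58). It failed the filter in the other 4, which left out start-point library 3, 5, 9 or 10. The weight of library 10, its highest, on this call was therefore not seen. miR-152-5p was past it in 12 of 14 and in 17 of 17 (2.02 to 2.46). Mouse as a fixed block in edgeR changed these 2 calls among the members and no other. Mouse as a random block in limma-voom changed neither, at a fitted correlation within mice of -0.0213. Without the end-point libraries under 75000 counts miR-148a-3p turned to 0.23. Between the sexes, miR-152-3p turned to -0.0043 with DESeq2 size factors and ran from -0.42 to 0.39 without single libraries. miR-152-5p turned to 0.69 with library totals only, 0.012 with no filter, 0.22 in limma-voom and 0.00094 in edgeR's older quasi-likelihood fit, and ran from -0.296 to 0.226 without single libraries. The shift in the miR-152 arm ratio ran from -4.23 to -2.94 over 5 alternatives and that of miR-148a from -0.66 to 0.88 over 6, within its SD. The difference in the percent of counts held by the 3p arms ran from -0.0218 to -0.0165, against -0.022. The older fit, the miR-148a ratio over libraries with a count and, for sex, the fits without shallow libraries and on start-point libraries alone were added after seeing the data, and the causes of these changes were not tested. Between time points miR-148a-5p failed the filter in male libraries only, and also without start-point library 2, 4, 5, 8, 9 or 10. It was therefore tested in 11 of the 17 fits without a single library. Most member values rest on fewer than 50 counts per library, which limits their precision.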
